A study of Danio rerio with 24 samples.

Results

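The genes for collagens were followed in zebrafish brain tumors that arose in adults after somatic targeting of rb1, the zebrafish retinoblastoma gene. Members were the rows of the count table whose gene name begins with col, a type number, the letter a and a chain number. The rule matched 59 of 32266 rows. Of these, 2 were col4a3bpa and col4a3bpb, which encode the ceramide transfer protein, a carrier of lipid between membranes that is no collagen. The other 57 rows were sorted by collagen type into 17 fibrillar, 9 basement membrane and 31 other collagen genes. Each of 10 tumors was taken from a different WIK fish of the genotype rb1- TALEN somatic targeted, aged 6.5 to 10 months. TALENs are designed nucleases, and each fish was a mosaic of edited and unedited cells, so the share of mutant cells in a sample was not known. The controls were 2 pools of 3 midbrain-hindbrain samples from wild-type WIK siblings in the same age range. Every sample was 1 side of the brain, cut to span diencephalon through cerebellum, and total RNA from whole tissue was sequenced as a and b libraries, which were summed here.

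Collagens are extracellular proteins built from 3 chains wound into a helix. Fibrillar collagens form the ropes of connective tissue, with type I in skin, bone and meninges and type II in cartilage and notochord, and types V and XI set the width of the fibrils. Type IV collagen forms the sheet-like network of basement membranes, and types XV and XVIII bind at their edges. Other families decorate fibrils, anchor epithelia or make fine beaded filaments around cells. In brain, the tissue between cells holds little fibrillar collagen, and most collagen lies in the meninges and around blood vessels. Many zebrafish collagens exist as an a and a b copy that arose from a duplicated genome.

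Library totals ran from 8.79 to 12.8 M counts, and summed totals from 18.5 to 24.95 M in tumors and 19.8 and 21.04 M in the pools. Levels are given in CPM, counts scaled to a common library size after TMM normalization. A floor of 3 counts stood at 0.119 to 0.153 CPM, for counting error only. The a libraries of the 2 pools did not differ beyond sampling noise, nor did the b libraries (chi-square per degree of freedom 1.00 to 1.01), whereas the a and b libraries of 1 labelled pool differed (3.25 to 3.42). The letters, not the pool numbers, thus separated the control libraries, and the closeness of the 2 labelled pools says little of how brains vary. Tumors are counted below as above or below both labelled pools, so such counts are uncertain for tumors close to them. Counting the same-letter control libraries as 1 sample each kept all 17 calls given below and added col5a2b. The targeted gene rb1 stood at 18.8 to 101 CPM in tumors and 13.1 and 14.6 CPM in the pools (log2 fold change 1.47, edgeR adjusted p = 0.0481, not called), and counts over the whole gene do not show the edit. All 6 proliferation and precursor genes examined rose (100%, against 22.8% of all genes tested), among them pcna (4.83). Most neuronal genes listed fell, namely snap25a (-2.76 on the log2 scale), elavl4 (-1.96), syt1a (-1.65), stmn2b (-1.63) and snap25b (-1.12), while elavl3 rose by 1.13. In bulk tissue, fewer cells of a type and less RNA per cell cannot be told apart.

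Of the 57 collagen genes, 51 passed the filter on low counts. Among them 6 were higher and 11 lower in tumors by edgeR's quasi-likelihood test, with thresholds of 0.01 on the adjusted p and 1.5-fold on the change, and 34 were not called. The called share was 33.3%, against 47.7% of all 20957 genes tested. Higher calls made up 11.8% of collagen genes and 22.8% of all genes, and lower calls 21.6% and 24.9%. The median log2 fold change was -0.43 for collagen genes and 0.09 for all genes. All 10 tumors lay above both pools for 9 collagen genes (31.5% of all genes tested did so) and below both for 17 (32.8% of all genes). Without control pool 1 the calls were 0 higher and 5 lower, and without pool 2 they were 0 and 4, with the lone pool assumed to vary like the tumors, and the share called of all genes was then 30.4% and 29.9%. The genes called in both cases were col2a1b, col7a1, col7a1l and col8a2, while leaving out any 1 tumor gave 5 to 6 higher and 8 to 13 lower calls. With limma on log2(FPKM + 1) there were 2 higher and 6 lower calls, and the calls of col2a1a, col4a2, col6a1, col6a2, col7a1, col11a1a, col27a1b, col28a1a and col28a2a were lost. Neither col4a3bpa (0.80) nor col4a3bpb (0.05) was called.

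**Figure D1:**
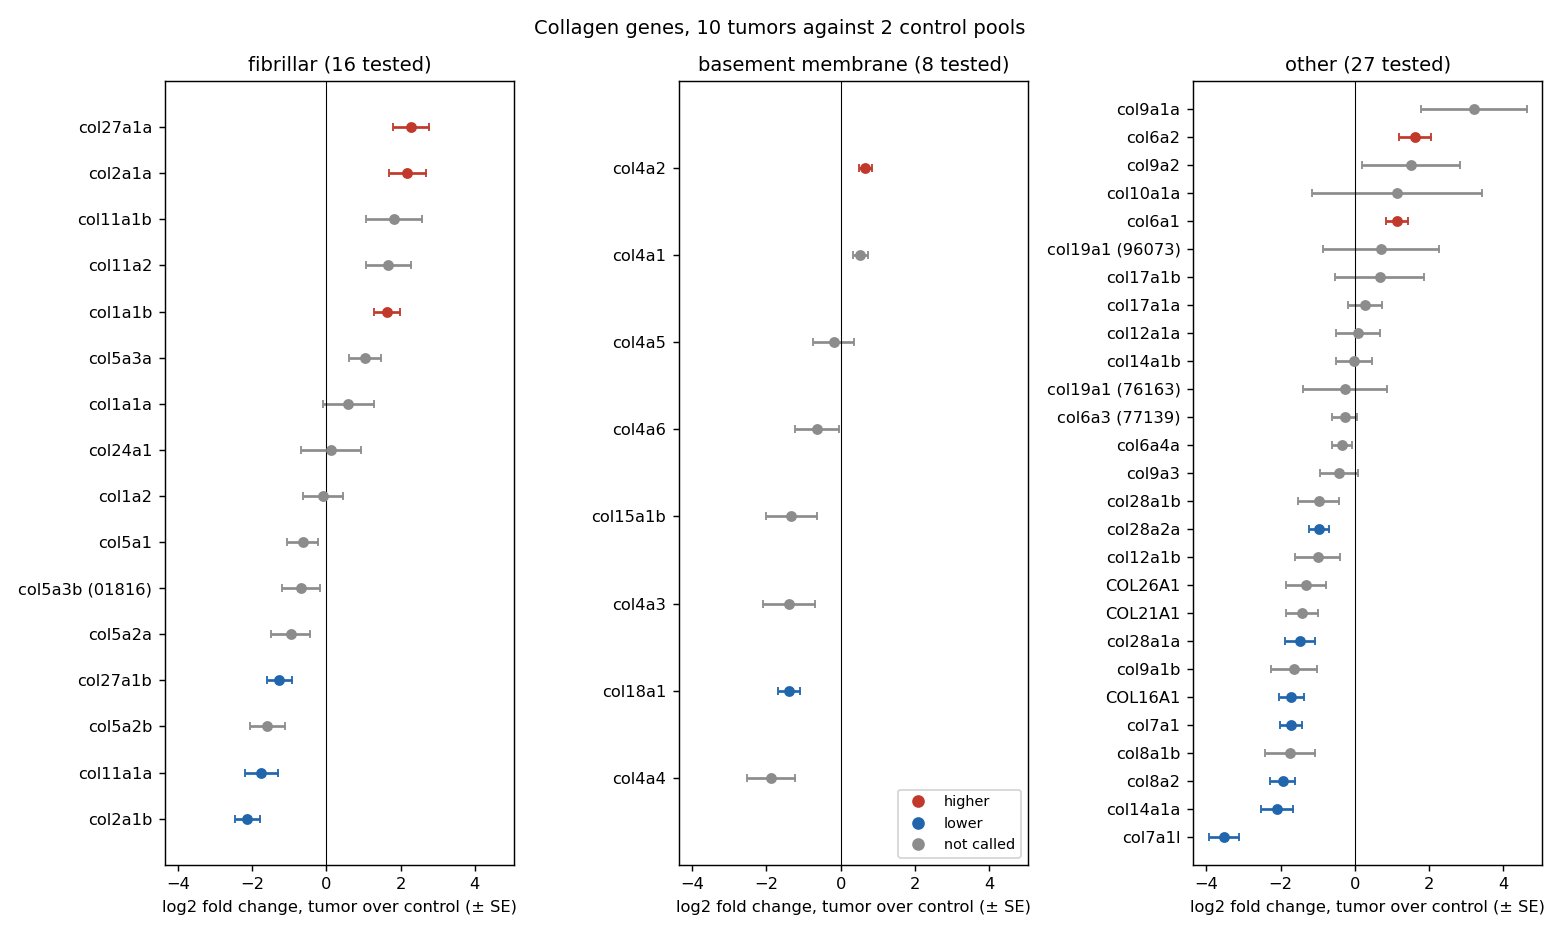
Log2 fold change of tumor over control with its SE (horizontal axis) for the 51 tested collagen genes, by class, from edgeR on 10 tumors and 2 control pools. Red and blue points are genes called higher (6) and lower (11), and grey points were not called; numbers in brackets are the last digits of the Ensembl identifier where a symbol occurs on several rows.

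By class the calls divided as follows, and the difference between classes was not tested. Fibrillar genes had 3 rises and 3 falls among 16 tested (median 0.02), and basement membrane genes had 1 of each among 8 (median -0.98). The other collagens had 2 rises and 7 falls among 27 (median -0.43). In this order the called shares were 37.5%, 25% and 33.3%, against 47.7% of all genes. Summed over all 57 genes, the collagen level was 297 to 440 CPM in tumors and 440.5 and 442 CPM in the pools. Every tumor thus lay below both labelled pools, with the highest almost level with them. The sum was not taken with the control libraries joined by letter, so this order is uncertain for the highest tumors. Of these sums the gene col14a1a alone made up 5.89 to 32.2 CPM in tumors and 69.8 and 69.3 CPM in the pools. A sum without that gene was not taken. The fibrillar sum overlapped between the groups, at 99.9 to 199 CPM in tumors and 137 and 139 CPM in the pools. The type VII sum was 2.09 to 6.87 CPM in tumors against 22.7 and 23.02 CPM, and the sum of types XV and XVIII 10.4 to 24.4 CPM against 41.4 and 41.6 CPM. The type IV sum went the other way, at 49.0 to 81.5 CPM against 49.8 and 51.4 CPM, above both pools in 9 of 10 tumors. Of this sum col4a1 made up 25.1 to 46.0 CPM and col4a2 20.5 to 32.2 CPM in tumors. By gene, 2 of the 6 type IV changes were positive and 4 negative (median -0.41), and 1 gene was called higher.

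**Figure D2:**
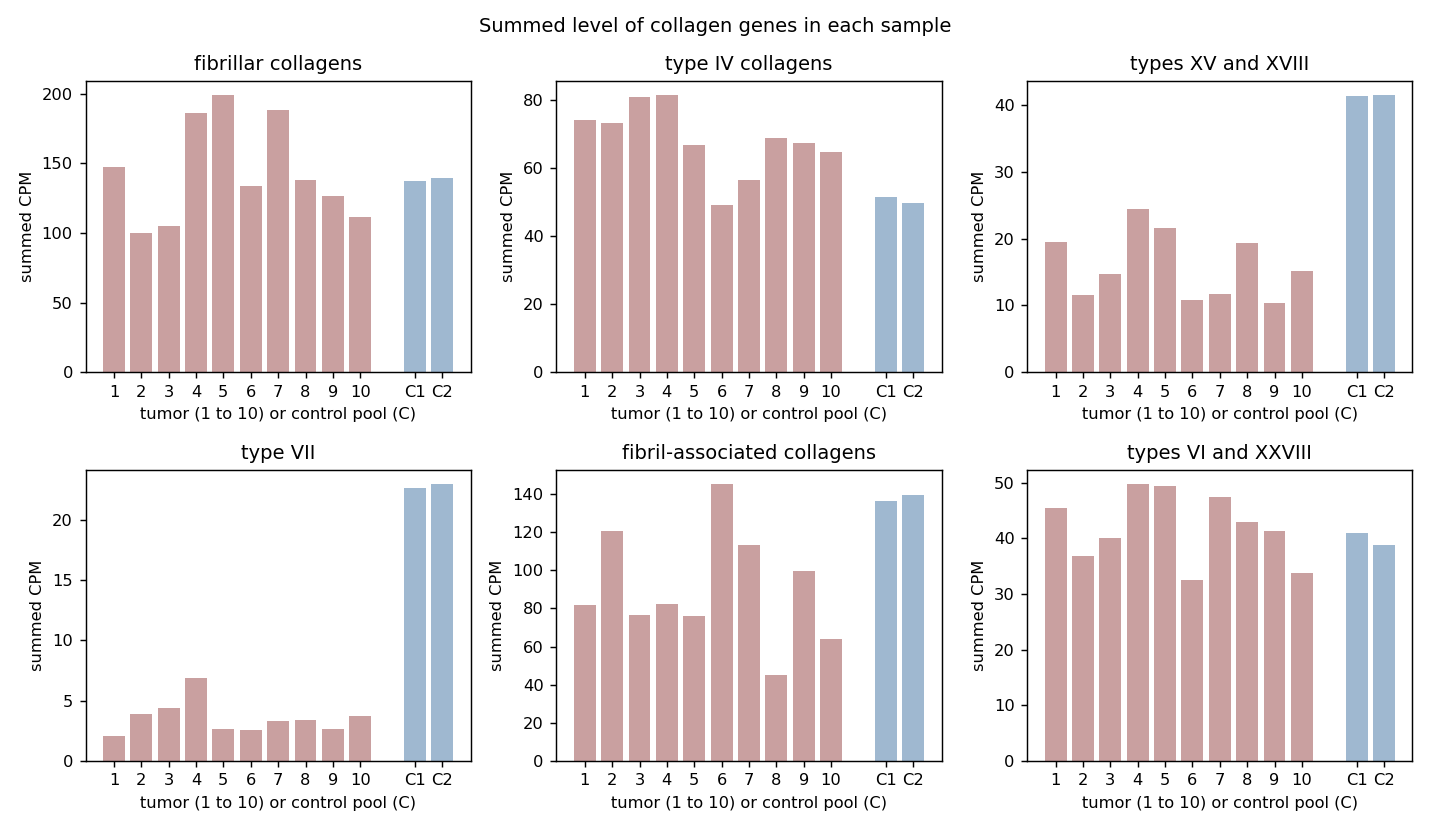
Summed CPM of the members of 6 collagen families (vertical axes, from 0) in tumors 1 to 10 and control pools C1 and C2, 1 bar per sample. Type VII and the sum of types XV and XVIII were below both pools in all 10 tumors, whereas the type IV sum was above both in 9 and the fibrillar sum overlapped.

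Type I collagen, the main fibrillar collagen, has 3 different chains in zebrafish, from col1a1a, col1a1b and col1a2. Of these, col1a1b (ENSDARG00000035809) rose. It stood at 32.3, 23.6, 23.99, 28.1, 48.2, 42.5, 57.1, 49.0, 30.9 and 31.2 CPM in tumors 1 to 10, and at 11.6 and 11.9 CPM in the pools. Every tumor was above both pools, and the level rose by 1.64 on the log2 scale (SE 0.35, edgeR adjusted p = 0.00121). The other α1 gene, col1a1a (ENSDARG00000012405), ranged more widely, at 25.7, 9.08, 6.26, 28.8, 33.5, 13.6, 32.1, 11.2, 6.82 and 5.30 CPM in tumors 1 to 10 against 11.1 and 11.8 CPM. Tumors 1, 4, 5, 6 and 7 were above both pools and 4 tumors below them, and the log2 fold change of 0.59 was not called (SE 0.70, edgeR adjusted p = 0.472). The α2 gene col1a2 (ENSDARG00000020007) followed the same split, at 6.89, 17.6 and 32.0 CPM (lowest, median and highest tumor) and 20.01 and 20.1 CPM in the pools, with 5 tumors above and 5 below them. For col1a2 tumor 6, at 21.6 CPM, lay within the spread of the control libraries joined by letter (mean 20.2 CPM, SD 2.47). The gene changed by -0.09 on the log2 scale, which was not called (SE 0.53, edgeR adjusted p = 0.897). Per length, col1a1b had the highest mean over tumors of the collagen mRNAs, at 6.48 ± 2.05 FPKM (SD, n = 10). FPKM are counts scaled by exonic length and library total. It did not lead in every tumor, since its highest value was 10.3 FPKM, against 21.9 FPKM for col9a1a and 11.3 FPKM for col24a1. By mean, col1a1b was 11th in the pools, at 2.17 and 2.23 FPKM.

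**Figure D3:**
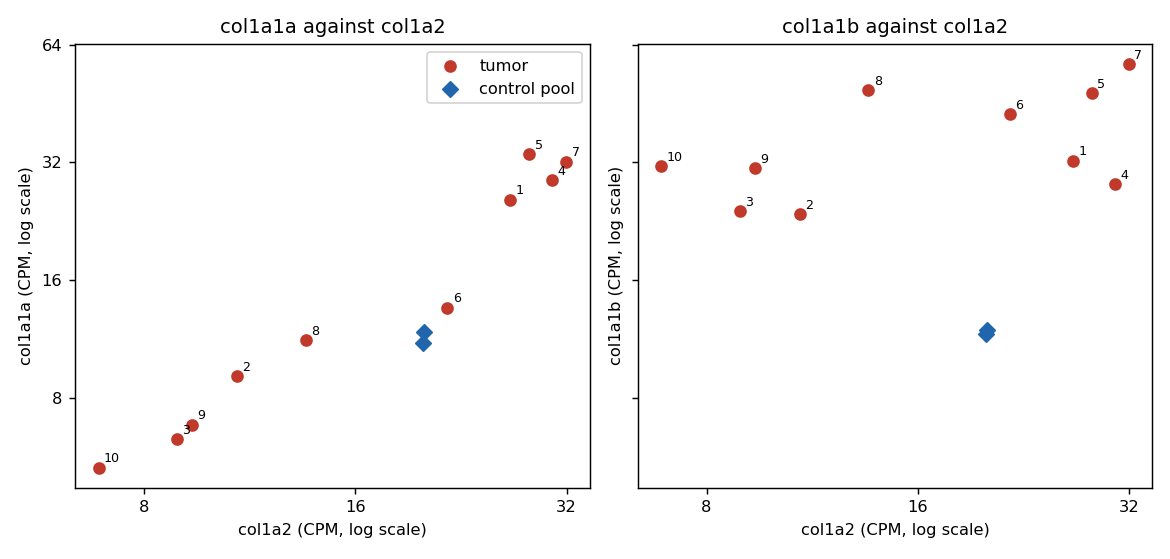
Levels of col1a1a (left) and col1a1b (right) against col1a2, all in CPM on log axes, with 1 red point per tumor (numbered) and 1 blue diamond per control pool. In tumors col1a1a rose and fell with col1a2 (r = 0.98), while col1a1b was above both pools in all 10 tumors at every level of col1a2.

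Across the 10 tumors, col1a1a and col1a2 varied together (Pearson r = 0.98, Spearman rho = 0.96, adjusted permutation p = 1e-04 and 5e-04 over 10 chain pairs, the first from the smallest p that the permutations can give). With the 2 tumors farthest from the median left out r was 0.98. For col1a1b and col1a2 r was 0.54 (rho = 0.52, permutation p = 0.11 and 0.135, adjusted 0.158 and 0.192). These values come from the same libraries, and the difference between the correlations was not tested.

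Type II collagen, the main fibrillar collagen of cartilage, moved in opposite directions in its copies. The gene col2a1a (ENSDARG00000069093) stood at 12.6, 4.91, 10.8, 9.84, 16.4, 9.53, 7.16, 5.61, 16.5 and 6.41 CPM in tumors 1 to 10 and 1.93 and 2.45 CPM in the pools. All tumors were above both pools (log2 fold change 2.18, SE 0.50, edgeR adjusted p = 0.00204; 0.90 and not called with limma on log2(FPKM + 1)). In contrast, col2a1b (ENSDARG00000011407) stood at 4.27, 2.68, 10.5, 8.27, 6.70, 8.21, 8.19, 10.7, 5.96 and 8.68 CPM against 33.2 and 31.7 CPM. All tumors were below both pools (log2 fold change -2.13, SE 0.33, edgeR adjusted p = 0.000112). Per length, col2a1b had been the second most abundant collagen mRNA of the pools.

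Type XXVII collagen, a fibrillar collagen of cartilage and notochord, showed the same opposition. The level of col27a1a (ENSDARG00000101258) was 6.47, 10.2 and 29.0 CPM (lowest, median and highest tumor) against 2.37 and 2.49 CPM in the pools, without overlap. It rose by 2.28 on the log2 scale (SE 0.50, edgeR adjusted p = 0.00142). For col27a1b (ENSDARG00000099930) the values were 1.23, 2.04 and 3.85 CPM against 5.12 and 5.21 CPM, again without overlap. It fell by 1.27 on the log2 scale (SE 0.34, edgeR adjusted p = 0.00567). The call of col27a1b was lost without tumor 2 (-1.15), without tumor 8 (-1.18) and with library a alone (-1.20).

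Of type XI collagen, which builds thin cartilage fibrils, col11a1a (ENSDARG00000026165) fell, at 0.475, 1.54 and 3.36 CPM in tumors against 4.59 and 5.98 CPM (log2 fold change -1.75, SE 0.44, edgeR adjusted p = 0.00364; lost with library a alone). The other α1 copy, col11a1b, was not called at 0.713 to 6.61 CPM in tumors and 1.01 and 0.861 CPM in the pools (1.83, edgeR adjusted p = 0.0483). The same held for col11a2, at 2.04 to 8.13 CPM in tumors and 1.35 and 1.22 CPM in the pools (1.66, edgeR adjusted p = 0.0284). Both had larger SEs than col11a1a, 0.75 and 0.60.

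No type V gene was called. The α1 gene col5a1 (ENSDARG00000012593) stood at 6.57, 8.25 and 24.6 CPM in tumors and 16.9 and 17.1 CPM in the pools (log2 fold change -0.64, SE 0.41, edgeR adjusted p = 0.189). Tumors 4 and 5 were above both labelled pools for col5a1 and for col5a2a (4.24 to 20.3 CPM against 16.9 and 17.8 CPM), and the other 8 tumors were below them. For col5a2a tumor 5, at 18.5 CPM, lay within the spread of the control libraries joined by letter (mean 17.5 CPM, SD 2.44). With the whole set of tumors col5a1 and col5a2a correlated (r = 0.88, adjusted permutation p = 0.0127; rho = 0.56, adjusted 0.161), but r was 0.25 without tumors 4 and 5, so the relation rests on those tumors. The lowly expressed col5a2b lay below both pools in all 10 tumors and missed the threshold (-1.60, edgeR adjusted p = 0.0103). The remaining members of the fibrillar class were col5a3a (1.05) and the tested col5a3b row (-0.69), col24a1 (0.12) and a second col5a3b row with no count in any sample.

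Type IV collagen of vessels and of the brain surface is a network of α1 and α2 chains, from col4a1 and col4a2, which are adjacent genes in the RefSeq annotation of GRCz12tu. The level of col4a2 (ENSDARG00000104110) was 30.6, 30.2, 32.2, 27.4, 25.7, 20.5, 21.6, 26.6, 27.995 and 22.4 CPM in tumors 1 to 10 and 16.9 and 16.5 CPM in the pools. It rose by 0.67 on the log2 scale (SE 0.18, edgeR adjusted p = 0.00516), above both pools in all 10 tumors. The call was lost, among other settings, without tumor 9 (0.63), with scaling by library size alone (0.58) and with limma on log2(FPKM + 1) (0.45). The level of col4a1 (ENSDARG00000055009) was 25.1, 33.9 and 46.0 CPM against 25.6 and 24.2 CPM, above both pools in 9 of 10 tumors. Its log2 fold change of 0.53 was not called (SE 0.20, edgeR adjusted p = 0.0329). Across tumors the genes correlated (r = 0.76 and rho = 0.77, adjusted permutation p = 0.0218 and 0.0423), with r = 0.50 without tumors 3 and 6.

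The minor type IV chains were lower in level and were not called. The chains of col4a5 and col4a6 form a further network, and in zebrafish the product of col4a5 lines the surface of the optic tectum, where retinal axons grow. The level of col4a5 (ENSDARG00000052063) was 0.998, 2.18 and 5.56 CPM in tumors against 3.04 and 2.95 CPM (log2 fold change -0.18, SE 0.55), and that of col4a6 (ENSDARG00000052061) was 0.618, 1.79 and 3.81 CPM against 3.62 and 3.13 CPM (-0.63, SE 0.60). Their edgeR adjusted p-values were 0.785 and 0.371. These adjacent genes varied together (r = 0.93, rho = 0.89, adjusted permutation p = 0.0012 and 0.00595; r = 0.92 without tumors 1 and 8). The chains of col4a3 (-1.39, edgeR adjusted p = 0.0977) and col4a4 (-1.87, edgeR adjusted p = 0.0214) were at most 1.63 CPM in every sample, and without tumor 10 both passed as lower.

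Type XVIII collagen, whose C-terminal piece is endostatin, fell. The gene col18a1 (ENSDARG00000036558) stood at 14.01, 10.02, 12.7, 22.4, 19.7, 9.91, 10.6, 10.03, 8.65 and 13.02 CPM in tumors 1 to 10 and 34.9 and 33.8 CPM in the pools. All tumors were below both pools (log2 fold change -1.39, SE 0.29, edgeR adjusted p = 0.000939). The related col15a1b was below both pools in 9 tumors and above them in tumor 8, at 9.27 CPM (-1.33, edgeR adjusted p = 0.109). A second type XVIII row, COL18A1, was at most 0.242 CPM in every sample and was not tested.

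Type VI collagen forms beaded filaments around cells, and col6a1 and col6a2 rose while col6a3 did not pass the test. The level of col6a1 (ENSDARG00000074908) was 9.03, 14.01 and 20.1 CPM in tumors and 6.38 and 5.94 CPM in the pools (log2 fold change 1.13, SE 0.30, edgeR adjusted p = 0.00523; lost with library a alone). The level of col6a2 (ENSDARG00000061436) was 2.32, 4.42 and 6.70 CPM against 1.40 and 1.496 CPM (1.62, SE 0.43, edgeR adjusted p = 0.00576). For both genes every tumor was above both pools, and they correlated across tumors (r = 0.83, adjusted permutation p = 0.0127; rho = 0.73, adjusted 0.0521; r = 0.75 without tumors 4 and 6). The level of col6a3 (ENSDARG00000077139), whose chain joins theirs, was 7.63, 13.6 and 24.1 CPM against 17.8 and 16.4 CPM (-0.28, SE 0.35, edgeR adjusted p = 0.504). No correlation with col6a2 was detected (r = -0.18, rho = -0.05, adjusted permutation p = 0.609 and 0.893). A second col6a3 row was too low to test, and col6a4a was not called (-0.34).

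Type VII collagen, which makes anchoring fibrils below epithelia in mammals, had the fall of largest log2 size among the members. The gene col7a1l (ENSDARG00000069692) stood at 0.380, 1.34, 1.72, 3.02, 0.927, 0.870, 1.59, 1.05, 1.27 and 1.30 CPM in tumors 1 to 10 and 15.8 and 15.5 CPM in the pools. All tumors were far below both pools (log2 fold change -3.53, SE 0.40, edgeR adjusted p = 1.09e-05). Its relative col7a1 (ENSDARG00000021720) was at 1.37, 2.04 and 3.85 CPM against 6.86 and 7.57 CPM, also without overlap (-1.71, SE 0.30, edgeR adjusted p = 0.00028).

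Fibril-associated collagens sit on the surface of fibrils, and 2 of their 12 genes fell and none rose. This was 16.7% lower, below the 24.9% of all genes tested. The level of col14a1a (ENSDARG00000005762) was 29.5, 9.82, 17.8, 20.2, 10.8, 32.2, 13.2, 5.89, 13.2 and 10.1 CPM in tumors 1 to 10 against 69.8 and 69.3 CPM in the pools. All tumors were below both pools (log2 fold change -2.09, SE 0.43, edgeR adjusted p = 0.00096). Per length it was the most abundant collagen mRNA of the pools (8.67 and 8.62 FPKM) and 13th in the tumors (1.91 ± 0.996 FPKM, SD, n = 10). COL16A1 was the other called gene of this family, at 1.28 to 3.79 CPM against 8.21 and 8.47 CPM (-1.71, edgeR adjusted p = 0.000707). The level of col12a1a (ENSDARG00000078322) overlapped, at 3.57, 12.1 and 29.7 CPM against 13.6 and 14.1 CPM (0.09, SE 0.59, edgeR adjusted p = 0.906). Not called either were col12a1b (-1.001), col14a1b (-0.02), col9a2 (1.51), col9a3 (-0.43), col9a1b (-1.63), COL21A1 (-1.41) and the col19a1 rows (-0.26 and 0.70). The FACIT gene with the largest fitted change, col9a1a (3.21), had an SE of 1.42 and an edgeR adjusted p of 0.0643.

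In the remaining families, col8a2 (ENSDARG00000060893), a short-chain network collagen, fell with 0.617, 1.43 and 2.29 CPM in tumors against 5.75 and 4.94 CPM (log2 fold change -1.95, SE 0.34, edgeR adjusted p = 0.000263). Its partner col8a1b was below both pools in all tumors but was not called (-1.75, edgeR adjusted p = 0.0356). Type XXVIII collagen gave lower calls for col28a1a (-1.47) and col28a2a (-0.97), both near the threshold (edgeR adjusted p = 0.00594 and 0.00825; both lost without tumor 2 and with no filter, and col28a2a without any 1 of tumors 2, 3, 4, 5, 6, 8 and 10), while col28a1b (-0.97) and COL26A1 (-1.31) were not called. The transmembrane col17a1a (0.29) and col17a1b (0.67) and the short-chain col10a1a (1.14) were not called. Besides the rows already named, col8a1a, col10a1b and COL28A1 did not pass the filter.

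Copies of 1 ancestral gene were then compared with each other. In 11 pairs both copies were tested, and the log2 ratio of copy a to copy b was compared between groups with a two-sided exact permutation test over the 66 ways to choose 2 of the 12 samples, whose smallest p is 0.0152. The pairs were compared after the changes of single genes had been seen. The ratio differed in 5 pairs, each at that smallest p (adjusted 0.0333 over 11 pairs) and without overlap between the groups. In col2a1, col9a1 and col27a1 every tumor was above both pools for copy a and below them for copy b, so those ratios could not overlap. Of all genes tested, 31.5% lay above and 32.8% below both pools in all tumors, and the share over other gene pairs was not computed. For col2a1 the ratio was -0.93 to 1.55 in tumors and -4.07 and -3.67 in the pools, a shift of 4.28. It shifted by 4.09 for col9a1 and by 3.48 for col27a1, toward copy a. The shift of col9a1 is uncertain, since col9a1b was near the floor, at 0 to 0.477 CPM in tumors and 0.628 and 0.589 CPM in the pools. Neither col9a1 copy was called. Toward copy b the ratio fell by 3.37 on the log2 scale for col11a1 and by 2.09 for col14a1. There col14a1b itself was at 7.39 to 42.7 CPM against 18.9 and 19.8 CPM.

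The other 6 pairs did not pass. For col5a3 the shift was 1.78, with all tumors above both pools (exact permutation p = 0.0303, adjusted 0.0556). For col1a1 it was -1.30, with 9 of 10 tumors below both pools (exact permutation p = 0.0909, adjusted 0.143). The exact permutation p was 0.227 to 0.712 for col12a1, col5a2, col28a1 and col17a1. The copies have similar sequences. The study's methods describe counts from uniquely mapped reads, in a paragraph that stands under its larval libraries. Whether the tumor libraries were counted in the same way was not stated there, so the ratios are uncertain to that extent. The pair col14a1 did not pass without any 1 of tumors 2, 5, 7, 8, 9 and 10 or with library b alone, and col9a1 did not with log2(FPKM + 1), whereas col2a1, col27a1 and col11a1 passed in all settings tried.

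**Figure D4:**
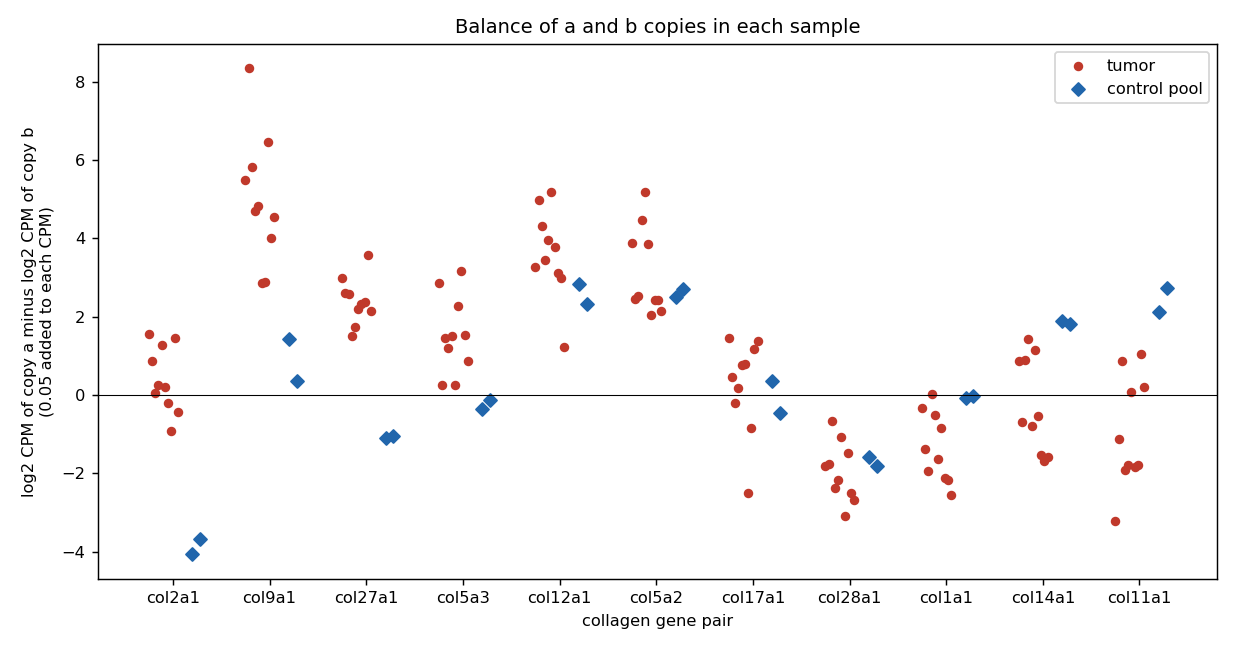
Log2 CPM of copy a minus log2 CPM of copy b (0.05 added to each CPM) in 10 tumors (red) and 2 control pools (blue diamonds) for 11 collagen gene pairs, ordered by the shift between groups. In col2a1, col9a1 and col27a1 every tumor is above both pools, and in col14a1 and col11a1 every tumor is below them.

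Several collagen genes were high in 1 tumor, and the a and b libraries of that tumor gave like values. In tumor 7 col10a1a stood at 7.68 CPM (98 and 95 counts in its a and b libraries), against 0 to 0.207 CPM in the other tumors and 0.290 and 0.453 CPM in the pools. The untested col10a1b was at 4.37 CPM in the same tumor and at most 0.207 CPM in the others. Tumor 7 was also highest for col17a1b, the collagen of epithelial attachment plaques, at 3.58 CPM against at most 0.380 CPM in the other tumors. In that tumor the epidermis list summed to 164 CPM, against 26.5 to 126 CPM in the others and 30.1 and 30.5 CPM in the pools, with krt5 at 91.3 CPM and epcam at 6.04 CPM. The epidermis genes krt4, evpla, cldne and ppl were also highest in tumor 7, but icn, tp63 and cdh1 were highest in tumor 1. Tumor 1 had the list sum of 126 CPM, with col10a1a at 0 CPM and col17a1b at 0.142 CPM. None of the 9 tested epidermis genes was called. The part of such tissue in these values was not tested.

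In tumor 2 col9a1a stood at 64.3 CPM, against 2.40 to 14.3 CPM in the other tumors and 1.79 and 0.770 CPM in the pools, so all tumors were above both pools while the test did not call the gene. The bone list summed highest in the same tumor, at 183 CPM against 16.5 to 78.8 CPM in the others, through phex at 166 CPM, whereas sp7 was at most 0.477 CPM and bglap at most 0.0829 CPM in every tumor. Of 8 tested bone genes 3 were lower (37.5%, against 24.9% of all genes) and none higher, with 3 changes positive and 5 negative. The defining cartilage genes acana and matn1 were at 0.801 to 1.76 CPM and at most 0.570 CPM in tumors, against 1.496 to 1.55 CPM and 0.242 to 0.363 CPM in the pools. Of 9 tested cartilage genes 2 were higher (22.2%, against 22.8% of all genes), hapln1a (6.45) and sox9a (1.30), and none was lower. The other 7 had negative changes that were not called (list median -0.93), and matn4 (-1.98), acanb (-0.93), ucmaa (-1.45) and mia (-2.61) were below both pools in every tumor. The list summed to 171 to 686 CPM in tumors against 116 and 118 CPM, of which hapln1a made up 46.5 to 562 CPM against 3.09 and 2.67 CPM. The part of these tissues in the levels of types II, IX, XI and XXVII was not tested. Tumor 10 was highest for col24a1 (13.5 CPM, against at most 4.07 CPM in the others), tumor 9 for col27a1a (29.0 CPM against at most 11.1 CPM), and tumor 6 for col9a2 (36.4 CPM against at most 17.8 CPM). The col19a1 row ENSDARG00000076163 was at 33.7 CPM in tumor 7 and 23.1 CPM in tumor 6, against 0.951 to 7.74 CPM in the other 8 tumors and 9.57 and 10.7 CPM in the pools.

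**Figure D5:**
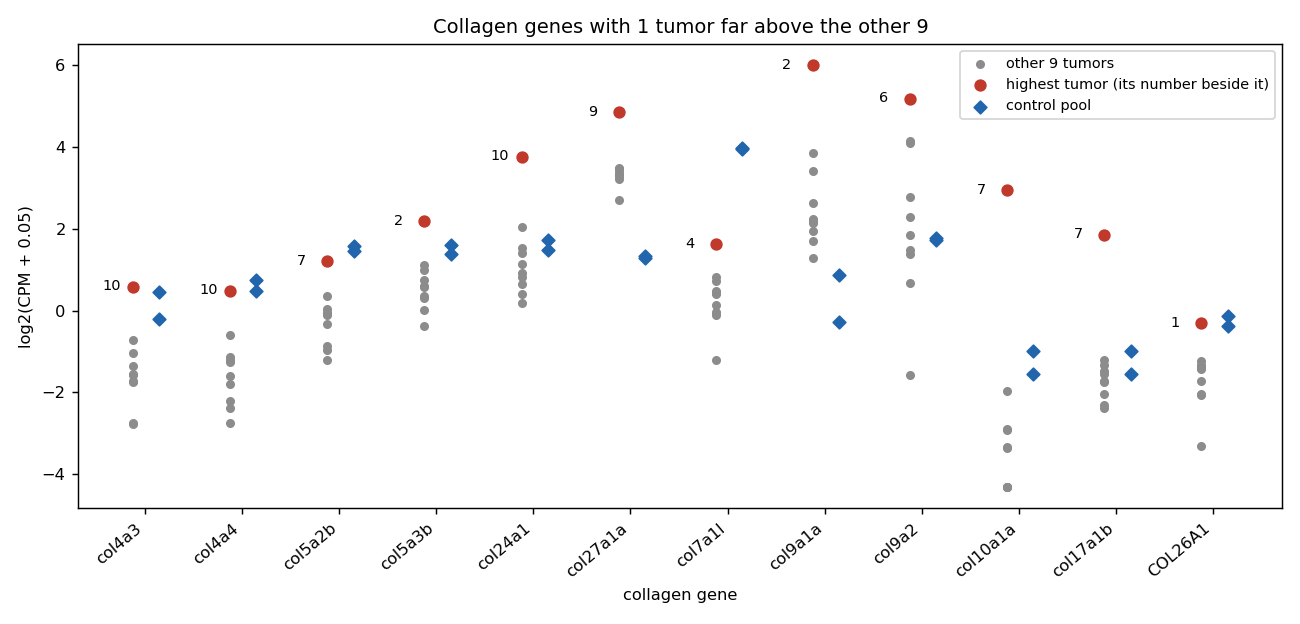
Log2(CPM + 0.05) of the 12 collagen genes with 1 tumor far from the other 9, with the highest tumor in red and numbered, the other tumors in grey and the control pools as blue diamonds. For col10a1a and col17a1b the highest tumor is tumor 7, and for col9a1a it is tumor 2.

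Markers of cells known to make collagen were counted in 3 lists. Of 13 tested fibroblast genes 6 were lower and none higher (46.2% called, against 47.7% of all genes called and 24.9% lower), and their summed level was 60.9 to 171 CPM in tumors and 231 and 236 CPM in the pools, without overlap. Among the defining genes, dcn (-1.69) and pdgfra (-2.12) fell and lum was at most 1.79 CPM in every sample. Of 10 mural cell genes 3 were lower and none higher (30% called, 141 to 252 CPM against 270 and 277 CPM). By sign, 4 of these changes were positive and 6 negative. Of the defining mural genes, notch3 fell (-1.19), at 38.6 to 67.0 CPM against 120 and 115 CPM, and PDGFRB was not called (0.07). Of 15 endothelial genes 3 were higher and 3 lower (40% called, 249.9 to 333 CPM against 302 and 302 CPM). Of 10 macrophage genes 6 were higher (60%, against 22.8% of all genes), and their sum was 2100 to 4589 CPM against 621 and 624 CPM. Of this sum apoeb alone made up 1080 to 3723 CPM against 306 and 309 CPM. The defining gene mpeg1.1 rose (1.75), at 37.9 to 90.2 CPM against 19.1 and 17.9 CPM. The part of these cells in the collagen values was not tested.

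Genes that act on collagen were counted in 4 further lists, of which 86 genes were tested, 15 of them higher and 22 lower. Biosynthesis genes, for proteins that modify, fold, export or trim the chains, had 8 rises and 7 falls among 39 (median -0.44). Their called share was 38.5%, against 47.7% of all genes. The rises included pcolceb (3.37), an enhancer of propeptide removal, PLOD3 (2.14), a lysyl hydroxylase, kdelr2b (1.83), a retrieval receptor of the secretory pathway, sec24d (1.496), a coat protein of export vesicles, and COLGALT1 (1.15), which adds galactose to collagen. The level of PLOD3 was 68.9, 87.4 and 131 CPM in tumors and 20.8 and 21.2 CPM in the pools (edgeR adjusted p = 2.03e-05). The falls included pcolce2b (-2.67), adamts2 (-2.35), which trims the N-terminal propeptide, p4ha1b (-1.45), a prolyl hydroxylase subunit, TMEM38B (-1.10) and bmp1b (-0.98). Related genes were divided. Of other prolyl hydroxylase subunit genes, p4hb (1.06) and p4ha1a (0.87) were called higher, p4ha2 (-0.64) was called lower and p4ha3 (-1.91) was not called. Not called either were bmp1a (0.999) and the separate row colgalt1 (0.13).

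Crosslinking genes of the lysyl oxidase family had no rise and 5 falls among 9 tested (median -1.04). The called share was 55.6%, all of it lower, against 47.7% of all genes called and 24.9% lower. LOX itself stood at 0.712, 1.52 and 2.97 CPM in tumors and 7.2001 and 8.79 CPM in the pools (log2 fold change -2.21, SE 0.36, edgeR adjusted p = 0.000156). The others were loxl5b (-2.49), loxl3a (-2.06), loxl3b (-1.04) and loxl1 (-0.97), and for all 5 every tumor was below both pools. The size of the loxl5b change is uncertain, since it was near the floor in tumors, at 0 to 0.305 CPM against 0.918 and 0.816 CPM. The call of loxl1 was lost without any 1 of tumors 1, 2, 6, 7, 8, 9 and 10 (-1.01 to -0.84), and that of loxl3b without any 1 of tumors 3, 5, 7 and 8 (-1.03 to -0.93), and both were lost with no filter and with library a alone. In the other direction loxl2b was above both pools in every tumor but was not called, at 2.36, 10.1 and 25.5 CPM against 2.03 and 1.86 CPM (2.59, SE 0.94, edgeR adjusted p = 0.0276). Of the 16 receptor genes, 5 were called (31.2%, against 47.7% of all genes). Among them 3 rose, namely itga2.2 (2.40), itgb1a (1.36) and itga1 (1.30), which encode integrin chains. Another 2 fell, MRC2 (-1.83), an uptake receptor for collagen, and itga10 (-1.70), also for an integrin chain. The level of itga2.2 was low, at 0.614 to 2.80 CPM in tumors and 0.338 and 0.181 CPM in the pools. Its call was lost with library b alone (2.43) and with limma on log2(FPKM + 1) (0.27). In the same settings the call of itga10 was lost (-1.65 and -0.25).

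Of the 22 genes for collagen-cutting proteases and their inhibitors, 4 rose and 8 fell. The shares were 18.2% higher and 36.4% lower, against 22.8% and 24.9% of all genes tested. The membrane protease mmp14b rose, at 66.7, 91.7 and 142 CPM in tumors against 17.3 and 16.7 CPM (log2 fold change 2.58, SE 0.31, edgeR adjusted p = 1.86e-05), while its copy mmp14a fell (-0.87). The other rises were ctsk (2.104), mmp15a (2.06) and ctsba (1.72). The largest falls were mmp17a (-2.58), mmp16b (-2.29) and the inhibitor genes TIMP3 (-2.15), timp2a (-1.65) and timp4.1 (-1.25). The partner lists together had 43% of their genes called, near the 47.7% of all genes.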

How the data were processed

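The authors deposited whole-number read counts per gene without normalization, and FPKM values computed from counts, exonic length and library total; the labels name GSNAP, HTSeq, DESeq2 and GRCz10, and the study's methods describe uniquely mapped reads for its larval libraries. Whether counting used strand was not given in the sources used here. The authors' own comparison table (fold changes and p-values) was not used. Counts of a and b libraries were summed to 12 samples. Genes were tested with edgeR 4.0.16 (R 4.3.3; glmQLFit, TMM, filterByExpr, Benjamini-Hochberg over 20957 genes), after a test on simulated data. Alternatives were DESeq2 1.42.0, limma 3.58.1 on log2(FPKM + 1), and other scalings, filters and samples. The members and lists were chosen with earlier results of these data known. Genes with values were those of a fixed list, called genes of largest change (up to 4 per class and direction, partners up to 5, mean of at least 1 CPM), and every other member briefly. The single-tumor genes, loxl2b, loxl5b, mmp14a and the uncalled cartilage genes were named after their values were seen. So were apoeb, p4hb, p4ha1a, p4ha2, p4ha3, bmp1a and colgalt1. The same held for the epidermis genes other than krt4 and krt5, and the neuronal genes other than elavl3 and snap25a. P-values measure spread among these samples. Of 59 rows, 56 identifiers had an entry in the reference names and 38 the same symbol there; symbols are those of the files. Coordinates are not given because the builds differ.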

Additional observations from a re-analysis of the deposited data

Results flagged for a closer look

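In 12 of 51 tested collagen genes the highest of the 10 tumors stood far from the nearest other one for the spread of the group (Dixon's test), and no lowest tumor did. The same rule on CPM picked 12.7% of all 20957 genes tested (23.5% of the collagen genes), 11.4% for the highest and 1.32% for the lowest tumor, above the nominal 1 in 20 groups, which holds for normally distributed values. Tumor 7 stood apart for col5a2b (2.27 CPM), col10a1a (7.68 CPM) and col17a1b (3.58 CPM). Tumor 10 stood apart for col4a3 (1.45 CPM), col4a4 (1.35 CPM) and col24a1 (13.5 CPM), and tumor 2 for col5a3b (4.51 CPM) and col9a1a (64.3 CPM). Single genes stood apart in tumor 9 (col27a1a, 29.0 CPM), tumor 4 (col7a1l, 3.02 CPM), tumor 6 (col9a2, 36.4 CPM) and tumor 1 (COL26A1, 0.760 CPM).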

How the results depend on the processing

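With scaling by RLE, no filter, the stricter filter, library b alone or control libraries summed by letter, every count stayed within 1.5 times its value; with DESeq2 likewise (8 higher and 13 lower). Limma on log2(FPKM + 1), which shrinks low genes, gave 2 higher and 6 lower collagen genes (fibrillar 1 lower, basement membrane 0 higher, other 0 higher and 4 lower). An adjusted p of at most 0.05 with no fold threshold gave 10 higher and 17 lower (fibrillar 6 higher; basement membrane 2 and 2; other 11 lower). Library size scaling gave 0 basement membrane genes higher, and library a alone 1 other gene higher. The replicate block, which joins tumors and pools by number, gave 2 higher collagen genes, 0 higher basement membrane genes, 0 higher and 4 lower other genes and 12 lower partner genes; the numbers pair nothing (deviations correlated at 0.0106 and 0.0187), and only the samples numbered 1 and 2 inform that fit. Leaving out 1 sample gave 0 to 6 higher and 4 to 13 lower collagen genes (fibrillar 0 to 3 and 1 to 4; basement membrane 0 to 1 and 0 to 3; other 0 to 2 and 3 to 8) and 8 to 15 and 9 to 24 partner genes. The lowest values came without control pool 1 (0 higher, 5 lower) or pool 2 (0 higher, 4 lower), where the lone pool is assumed to vary like the tumors; without a tumor the counts were 5 to 6 and 8 to 13. Uncalled changes near 0 turned sign: col4a5 (0.00569 with the block), col12a1a (-0.0701 with limma, -0.00916 with the block, -0.0866 to 0.23 without 1 sample) and col1a2 (-0.21 to 0.0574 without 1 sample). The correlation of col2a1a and col9a1a was -0.32, and -0.43 to 0.23 without 1 tumor. Chain pairs that passed numbered 4 to 5 and copy pairs 4 to 6 without 1 tumor; the copy pair settings were chosen after seeing the data. The causes were not tested. At these depths counting error is large for genes under 1 CPM.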
